A study of Mus musculus with 42 samples.

Results

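Complement components, receptors and regulators are described here as 32 mouse genes, chosen by name and found by their Ensembl identifiers in both gene count tables of a study of knee arthroplasty surgery in mice. All 32 members were present in both, among 36604 listed genes for joints and 54752 for nodes. RNA was sequenced from bulk joint soft tissue and from lymph nodes of wild type C57BL/6 mice, whose ages are not given. The joint groups were RST on days 3, 7, 14, 21 and 35 and LST on day 35, with 4 libraries each. The labels do not spell out RST or LST, and LST was sampled on day 35 only, so on the earlier days label and time differ at once and cannot be told apart. The node groups were Implant, ContraImplant and NoImplant on days 7 and 14, with 3 libraries each. The table's column names mark ContraImplant and NoImplant as taken without surgery. Implant and ContraImplant nodes with the same number came from opposite sides of 1 mouse, and NoImplant nodes came from other mice. Library names carry R for all Implant and NoImplant nodes and L for all ContraImplant nodes. Side and label therefore cannot be told apart between Implant and ContraImplant, or between ContraImplant and NoImplant. Nothing says that the joint replicates came from separate animals, so joint p-values may reflect technical spread alone.

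Complement is a cascade of plasma proteins that tags particles for uptake and can open pores in membranes. The classical pathway starts when C1q binds antibody or dying cells and its proteases C1r and C1s cut C4 and C2. The lectin pathway uses ficolins and MASP proteases to the same end, and the alternative pathway amplifies deposited C3 with factor B and properdin. All 3 converge on C3 and C5. The fragments C3a and C5a signal through receptors on myeloid cells, C5b gathers C6 to C9 into the membrane attack complex, and soluble and membrane-bound regulators hold each step back. The liver makes most circulating complement, while macrophages and fibroblasts make C1q, C1r, C1s and C3 locally, and follicular dendritic cells of lymph nodes hold complement-coated antigen.

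Library totals ran between 17842090 and 28024003 counts in joint soft tissue and between 22041900 and 44371001 in nodes. RST day 14 replicate 2 and RST day 21 replicate 2 stood apart from their groups, with summed monocyte and recruited macrophage markers of 1193 and 864 CPM, the highest of their groups. Among nodes, ContraImplant day 7 replicate 2 had 9253 CPM of summed adipocyte markers, against 241 and 813 CPM in the other libraries of its group. Muscle markers, which belong to tissue around the joint, summed to 89380 to 124400 CPM in RST day 3 joints and 235500 to 259100 CPM in LST day 35 joints. The nodes carried B cell markers summing to 7307 to 7820 CPM in Implant day 7 nodes and 6177 to 7049 CPM in NoImplant day 7 nodes, and the joints at most 27.8 CPM.

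Levels are given as CPM, counts scaled to library size with TMM factors, and levels of different genes are compared per kilobase of exon. In RST day 3 joints the highest mean levels per kb were those of C1qa (155 CPM per kb), C1qb (151 CPM per kb) and Clu (132 CPM per kb). In LST day 35 joints Serping1 (26.2 CPM per kb), Clu (21.7 CPM per kb) and C3 (20.2 CPM per kb) led. In nodes, Clu and C3 had the highest levels per kb, with 616 and 385 CPM per kb in Implant day 14 nodes and 516 and 490 CPM per kb in NoImplant day 14 nodes. At the other end in joints was Hc, which encodes C5 in mice and had 0 counts in all 4 LST day 35 libraries and 4 counts over the 4 RST day 3 libraries. Both tissues were normalised separately, so levels are not compared between them.

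**Figure D1:**
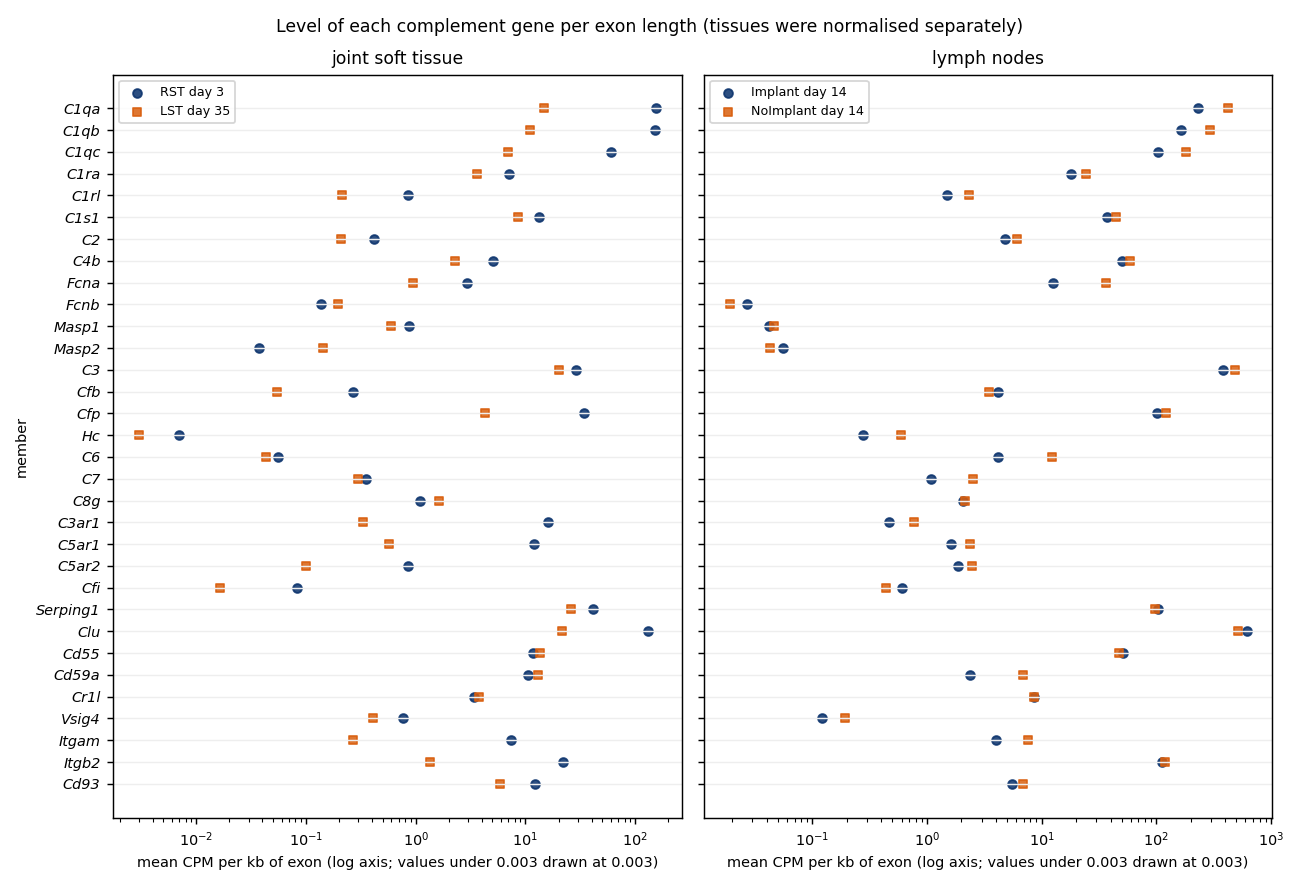
Mean level of each of the 32 members as CPM per kb of exon on a log axis, in joints (left: RST day 3 as circles, LST day 35 as squares) and nodes (right: Implant day 14 as circles, NoImplant day 14 as squares). C1qa, C1qb and Clu lie at the high end in RST day 3 joints, and Clu and C3 in nodes. In joints Hc, at 0 in LST day 35 joints and drawn there at the low edge of the axis, lies at the low end.

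A filter on low counts left 28 of the 32 members in the joint test (Fcnb, Masp2, Hc and C6 were left out), among 16149 genes. On day 3, 21 of the 28 were higher in RST than in LST day 35 joints and 1 was lower (edgeR, adjusted p below 0.05), where 38.6% of all tested genes were higher and 30.1% lower. On day 7, 19 were higher and 4 lower (all genes, 41% and 35.1%). On day 14, 19 were higher and 0 lower (all genes, 33.4% and 24.5%), and on day 21, 18 were higher and 0 lower (21.7% and 5.42%). On day 35, the day both labels were sampled, 5 were higher and 0 lower, against 2.92% and 0.0495% of all genes. The median log2 fold change of the 28 members was 1.38, 1.61, 1.34, 0.95 and 0.45 on days 3, 7, 14, 21 and 35, and that of all tested genes between 0.02 and 0.09. Since a large share of all genes passed on days 3 to 14, the members' counts on those days are read against that background. Where libraries of groups are said below not to overlap, the share of all genes that do the same was not counted. Fewer cells of a type and less RNA per cell cannot be told apart in bulk tissue.

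**Figure D2:**
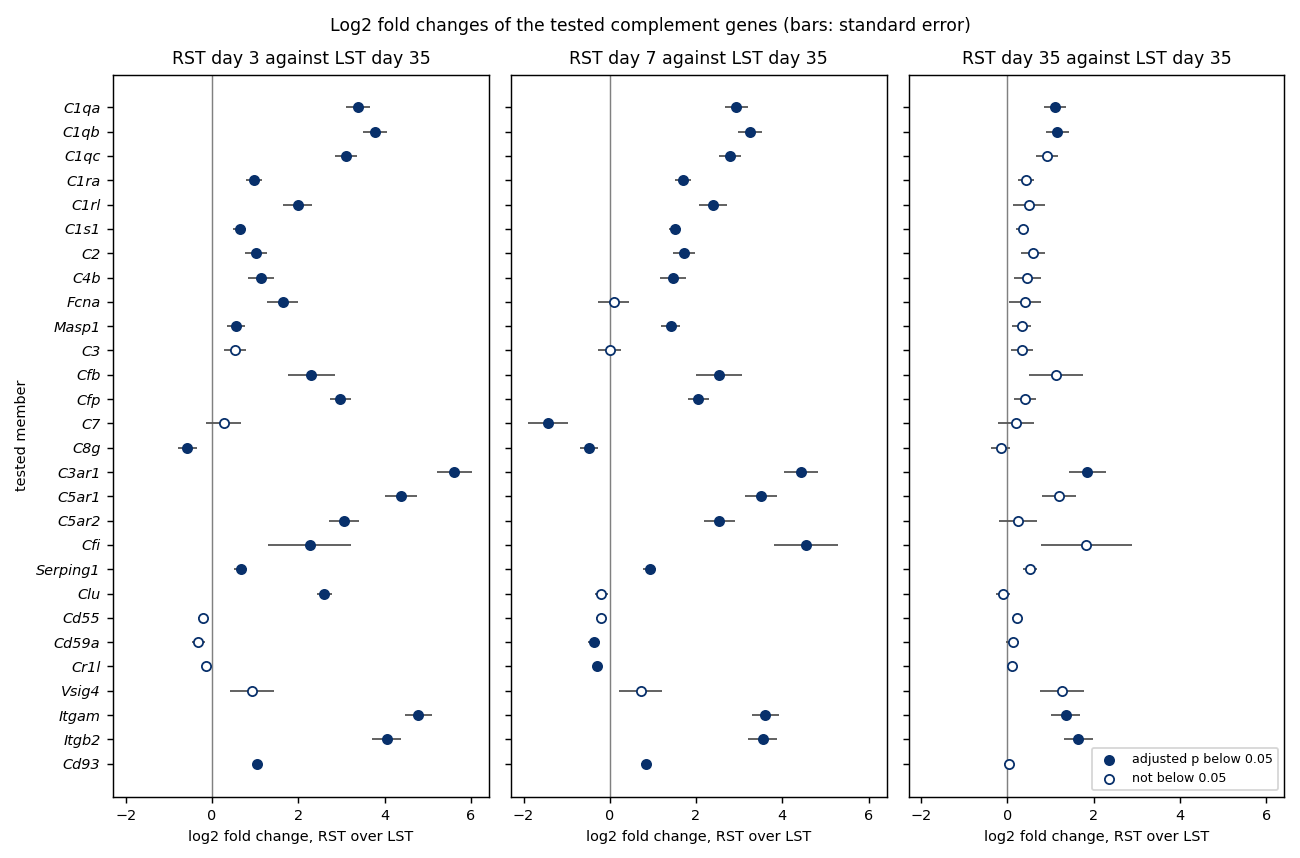
Log2 fold change (x axis) of the 28 tested members in RST joints on days 3, 7 and 35 over LST day 35 joints, with standard errors; filled points passed at an edgeR adjusted p below 0.05. Receptors and C1q chains lie furthest right on day 3, and 5 filled points remain on day 35. The Cfi value rests on 3 counts in LST joints.

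The choice of scaling bears on the small changes. Scaled by library totals alone, without TMM, the median log2 fold change of all genes was 0.61 on day 3 and 0.71 on day 7, against 0.09 and 0.08 with TMM, and 25 members were higher and 0 lower on day 3, and 23 higher and 0 lower on day 7. Over all genes that scaling gave 10251 higher and 1813 lower on day 3, against 6234 and 4867 with TMM, and 10633 higher and 2195 lower on day 7, against 6620 and 5667.

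The 3 chains of C1q, the recognition molecule of the classical pathway, rose together in RST joints. C1qa had 184.5, 162, 130.2 and 166 CPM in the RST day 3 libraries and 21.2, 28.5, 36.4 and 45.98 CPM in the RST day 35 libraries, against 14.65, 12.1, 17.4 and 17.5 CPM in the LST day 35 libraries. Each RST library, on either day, was above each LST library. The log2 fold change of C1qa, given like all others with its standard error after ±, was 3.38 ± 0.27 on day 3 (edgeR adjusted p = 6.08e-10) and 1.10 ± 0.25 on day 35 (edgeR adjusted p = 0.0171). C1qb had 187, 169, 133 and 169 CPM in RST day 3 joints and 17.6, 22.0, 30.5 and 37.3 CPM in RST day 35 joints. C1qb had 11.9, 9.85, 12.5 and 13.8 CPM in LST day 35 joints. Its log2 fold change was 3.78 ± 0.28 on day 3 (edgeR adjusted p = 3.24e-10) and 1.16 ± 0.27 on day 35 (edgeR adjusted p = 0.0167). C1qc followed with 131, 116, 97.6 and 119 CPM in RST day 3 joints. C1qc had 12.7, 10.99, 15.8 and 14.4 CPM in LST day 35 joints (log2 fold change 3.11 ± 0.26, edgeR adjusted p = 1.5e-09 on day 3). On day 35 C1qc had 15.6, 23.6, 28.1 and 34.6 CPM in RST joints and missed the threshold (log2 fold change 0.92 ± 0.25, edgeR adjusted p = 0.0514). Means of the 3 chains were lower on each later RST day than on the one before, and on day 21 they stood at 56.55 ± 20.9, 48.4 ± 19.4 and 43.5 ± 15.75 CPM (SD, n = 4). The genes lie next to each other on chromosome 4 (mm10, 136880129 to 136898803), all on the minus strand.

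**Figure D3:**
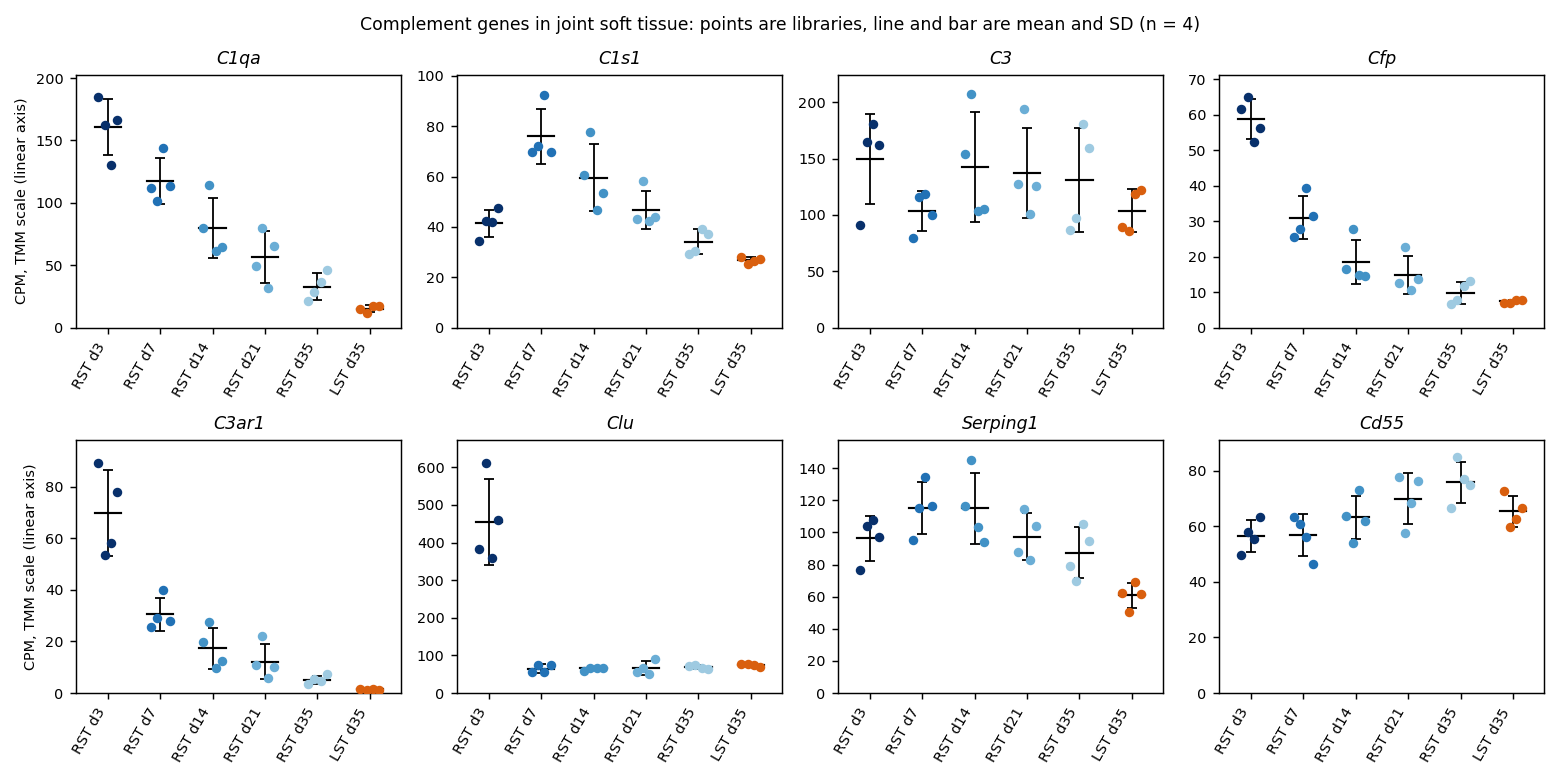
CPM (linear axes starting at 0) of 8 members in each joint library, RST days in order and LST day 35 last; points are libraries, lines and bars the mean and SD (n = 4). C1qa, Cfp and C3ar1 were highest on day 3, C1s1 on day 7, Clu was high on day 3 alone (358.5 to 613 CPM), and C3 libraries overlapped between all groups.

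The proteases of the C1 complex had a later maximum than C1q. C1s1, the gene of the C1s protease that cuts C4 and C2, had 34.35, 42.2, 41.9 and 47.5 CPM in RST day 3 joints and 69.5, 72.1, 92.3 and 69.7 CPM in RST day 7 joints. C1s1 had 28.1, 25.2, 26.4 and 27.1 CPM in LST day 35 joints. The 3 groups did not overlap. The log2 fold change was 1.51 ± 0.15 in RST day 7 over LST day 35 joints (edgeR adjusted p = 6.11e-09) and 0.87 ± 0.14 in RST day 7 over RST day 3 joints (edgeR adjusted p = 5.39e-05). C1ra, which encodes C1r, the protease that activates C1s, had 18.7, 19.45, 23.9 and 22.1 CPM in RST day 3 joints and 29.7, 33.35, 41.99 and 34.6 CPM in RST day 7 joints. C1ra had 11.35, 9.985, 10.99 and 10.5 CPM in LST day 35 joints. The log2 fold change of C1ra over LST was 1.71 ± 0.18 on day 7 (edgeR adjusted p = 2.76e-08), and RST day 7 exceeded RST day 3 by 0.73 ± 0.18 (edgeR adjusted p = 0.00219). C1rl, a protease related to C1r, had 2.785, 2.84, 2.09 and 2.60 CPM in RST day 3 joints and 3.26, 3.24, 3.93 and 3.28 CPM in RST day 7 joints. C1rl had 0.848, 0.593, 0.724 and 0.409 CPM in LST day 35 joints. Its log2 fold change over LST was 2.40 ± 0.33 on day 7 (edgeR adjusted p = 8.28e-07), without a called step between days 3 and 7 (edgeR adjusted p = 0.251). On day 35 none of C1ra, C1rl and C1s1 passed against LST (log2 fold changes 0.44, 0.49 and 0.35, edgeR adjusted p between 0.269 and 0.728). Reads of the near-identical copies C1rb and C1s2 could be split differently by the counting, and C1s1 overlaps the antisense gene Gm16567, so these levels carry that uncertainty.

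Both substrates of C1s passed in RST joints on days 3 to 21. C4b, which encodes C4, had 24.6, 39.2, 41.2 and 39.5 CPM in RST day 7 joints and 39.1, 57.2, 24.6 and 36.2 CPM in RST day 14 joints. C4b had 9.515, 9.67, 16.4 and 16.8 CPM in LST day 35 joints. Its mean was highest on day 14 (log2 fold change 1.59 ± 0.30, edgeR adjusted p = 0.000149), and the day 35 libraries, at 10.3, 13.4, 25.8 and 22.4 CPM, overlapped with LST (log2 fold change 0.46 ± 0.31, edgeR adjusted p = 0.639). C2, the protease part of the classical C3 convertase, had 1.21, 1.315, 1.79 and 2.19 CPM in RST day 3 joints and 1.96, 2.575, 3.47 and 2.52 CPM in RST day 7 joints. C2 had 0.518, 1.003, 0.809 and 0.870 CPM in LST day 35 joints. Every RST library of both days was above every LST library, and the log2 fold change was 1.72 ± 0.25 on day 7 (edgeR adjusted p = 2.29e-06). The day 21 calls of both genes rested on single libraries. Without RST day 21 replicate 2 the day 21 log2 fold change of C4b was 0.68 (edgeR adjusted p = 0.154) and that of C2 0.79 (edgeR adjusted p = 0.0811). Without LST replicate 1 the values were 0.80 (edgeR adjusted p = 0.0829) for C4b and 0.70 (edgeR adjusted p = 0.0754) for C2, and without LST replicate 2 that of C4b was 0.80 (edgeR adjusted p = 0.0904). C2 shares exon bases with Gm20547, and the near-identical copy C4a can take reads of C4b, so both levels depend on how shared reads were counted.

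The lectin pathway genes followed 2 courses. Fcna, which encodes ficolin A, a sugar-binding recognition protein made by macrophages, had 2.32, 4.78, 4.70 and 4.45 CPM in RST day 3 joints, 1.10, 1.40, 1.77 and 1.30 CPM in RST day 7 joints and 1.32, 1.003, 1.53 and 1.38 CPM in LST day 35 joints. Its day 3 libraries were the only ones to lie apart from LST (log2 fold change 1.63 ± 0.35, edgeR adjusted p = 0.000264). RST day 7 was lower than RST day 3 (log2 fold change -1.54 ± 0.34, edgeR adjusted p = 0.000964). Masp1, a protease that ficolins carry, was highest on day 14, with 12.5, 17.3, 16.04 and 16.03 CPM in RST day 7 joints and 19.9, 24.6, 15.65 and 15.1 CPM in RST day 14 joints. Masp1 had 6.17, 5.93, 6.985 and 4.14 CPM in LST day 35 joints. No RST library of those days overlapped with LST (log2 fold change 1.69 ± 0.21, edgeR adjusted p = 1.05e-06 on day 14). The day 3 call of Masp1 (log2 fold change 0.56 ± 0.22, edgeR adjusted p = 0.0264) was lost without RST day 3 replicate 2 (log2 fold change 0.51, edgeR adjusted p = 0.0617). It was also lost without RST day 3 replicate 3 (log2 fold change 0.51, edgeR adjusted p = 0.0606), and without LST replicate 4 (log2 fold change 0.43, edgeR adjusted p = 0.0994). Fcnb, which encodes the neutrophil ficolin, and Masp2, whose protein cuts C4 and C2, were below the count filter, with at most 0.692 and 0.665 CPM in any joint library. Masp2 shares exon bases with Tardbp on the opposite strand, and the sources used here do not say whether the counting used strand.

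C3, on which all pathways converge, did not pass on any day. It had 91.2, 165, 181 and 162 CPM in RST day 3 joints and 86.3, 97.2, 181 and 159.8 CPM in RST day 35 joints. C3 had 88.98, 85.7, 119 and 122 CPM in LST day 35 joints, with overlapping groups (log2 fold change 0.53 ± 0.26, edgeR adjusted p = 0.0773 on day 3). Cfp, which encodes properdin, the stabiliser of the alternative C3 convertase that myeloid cells secrete, differed widely. It had 61.6, 65.1, 52.5 and 56.2 CPM in RST day 3 joints and 25.5, 27.8, 39.4 and 31.6 CPM in RST day 7 joints. Cfp had 7.11, 7.07, 7.88 and 7.83 CPM in LST day 35 joints. The 3 groups did not overlap, and the change was largest on day 3 (log2 fold change 2.98 ± 0.24, edgeR adjusted p = 8.91e-10), with day 7 below day 3 (log2 fold change -0.92 ± 0.22, edgeR adjusted p = 0.00199). Cfb, the protease of the alternative convertase, stayed below 1 CPM in the mean of every joint group, with 0.470 to 1.06 CPM in RST day 3 joints against 0.0426 to 0.2355 CPM in LST day 35 joints. It passed on days 3 to 21 (log2 fold change 2.53 ± 0.53, edgeR adjusted p = 0.000166 on day 7). Its day 21 call was lost without RST day 21 replicate 2 (log2 fold change 1.26, edgeR adjusted p = 0.211) or 4 (log2 fold change 1.61, edgeR adjusted p = 0.0756), and without LST replicate 2, 3 or 4 (log2 fold changes 1.83, 1.41 and 1.74). Cfb shares exon bases with Gm20547.

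Of the components of the membrane attack complex, C7 and C8g could be tested in joints. C8g, the gamma chain of C8, was the one tested terminal gene with group means above 1 CPM, with 1.625, 1.63, 1.495 and 1.81 CPM in RST day 3 joints, 2.08, 1.88, 1.41 and 1.66 CPM in RST day 7 joints and 2.97, 3.055, 2.34 and 1.38 CPM in LST day 35 joints. LST replicate values spanned those of RST, although the fit called C8g lower on day 3 (log2 fold change -0.57 ± 0.21, edgeR adjusted p = 0.0213) and on day 7 (log2 fold change -0.48 ± 0.21, edgeR adjusted p = 0.0434). With library totals in place of TMM its log2 fold change was -0.05 on day 3 and 0.14 on day 7. The day 3 call was also lost without RST replicate 3 (log2 fold change -0.53, edgeR adjusted p = 0.0502), LST replicate 1 (log2 fold change -0.47, edgeR adjusted p = 0.0776), or LST replicate 2 (log2 fold change -0.45, edgeR adjusted p = 0.0887). The day 7 call was lost without RST replicate 2, 3 or 4 (-0.52, -0.39 and -0.45 on the log2 scale) or LST replicate 1, 2 or 3 (-0.38, -0.36 and -0.50). C7, which inserts the growing complex into the membrane, had 0.418 to 1.75 CPM in RST day 3 joints, 0.06545 to 0.445 CPM in RST day 7 joints and 0.547 to 1.13 CPM in LST day 35 joints. It was called lower on day 7 (log2 fold change -1.43 ± 0.46, edgeR adjusted p = 0.00772), a call lost with library totals (log2 fold change -0.83, edgeR adjusted p = 0.0998). C6, at 0.0464 to 0.381 CPM in RST day 3 joints and 0.0852 to 0.228 CPM in LST day 35 joints, and Hc were below the count filter.

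All 3 receptors for C3a and C5a were higher in RST joints on days 3 to 21, and C3ar1 had the largest log2 fold change of the 28 tested members on day 3. C3ar1, the C3a receptor of myeloid cells, had 89.1, 53.5, 58.3 and 77.8 CPM in RST day 3 joints, 25.4, 29.2, 39.8 and 27.8 CPM in RST day 7 joints and 3.37, 5.45, 4.49 and 7.24 CPM in RST day 35 joints. C3ar1 had 1.60, 1.14, 1.62 and 1.28 CPM in LST day 35 joints. No RST library of those days overlapped with an LST library. The fold over LST that edgeR fitted was 49.1 on day 3 and 3.61 on day 35. On the log2 scale the difference was 5.62 ± 0.41 on day 3 (edgeR adjusted p = 2.39e-10) and 1.85 ± 0.43 on day 35 (edgeR adjusted p = 0.0171). C5ar1, the main C5a receptor, which draws neutrophils and macrophages toward C5a, had 38.7, 27.2, 28.5 and 29.5 CPM in RST day 3 joints and 14.9, 15.9, 20.1 and 16.5 CPM in RST day 7 joints. C5ar1 had 1.74, 1.41, 1.36 and 1.38 CPM in LST day 35 joints (log2 fold change 4.39 ± 0.37, edgeR adjusted p = 1.35e-09 on day 3). Its RST day 35 libraries, at 1.71, 2.32, 3.73 and 5.75 CPM, missed the threshold (log2 fold change 1.19 ± 0.40, edgeR adjusted p = 0.123). C5ar2, the second C5a receptor, which does not couple to G proteins, had 2.88, 3.36, 2.48 and 3.32 CPM in RST day 3 joints and 0.679, 1.33, 0.274 and 1.14 CPM in RST day 21 joints. C5ar2 had 0.424, 0.319, 0.4685 and 0.205 CPM in LST day 35 joints (log2 fold change 3.06 ± 0.35, edgeR adjusted p = 9.07e-08 on day 3). On day 21 its libraries overlapped with LST. The day 21 call (log2 fold change 1.28 ± 0.39, edgeR adjusted p = 0.0173) was lost without RST day 21 replicate 2 (log2 fold change 0.96, edgeR adjusted p = 0.131), RST day 21 replicate 4 (log2 fold change 1.14, edgeR adjusted p = 0.0591), or LST replicate 4 (log2 fold change 1.11, edgeR adjusted p = 0.0569).

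Among the fluid-phase regulators, Clu and Serping1 took separate courses. Clu, which encodes clusterin, a secreted chaperone that binds the terminal complex, had 384, 613, 358.5 and 460.3 CPM in RST day 3 joints, 57.1, 75.35, 54.9 and 73.7 CPM in RST day 7 joints and 78.5, 75.96, 74.3 and 69.4 CPM in LST day 35 joints. Day 3 stood alone: its lowest library was several times the highest of any other joint group, and the fold over LST that edgeR fitted was 6.09 (log2 fold change 2.61 ± 0.17, edgeR adjusted p = 7.25e-11). RST day 7 was far below RST day 3 (log2 fold change -2.80 ± 0.17, edgeR adjusted p = 1.75e-10) and did not pass against LST (log2 fold change -0.19 ± 0.16, edgeR adjusted p = 0.278), where library totals gave 0.44. Serping1, which encodes the C1 inhibitor that blocks C1r, C1s and MASP proteases, had 76.4, 104, 108 and 97.3 CPM in RST day 3 joints, 95.1, 115, 135 and 116 CPM in RST day 7 joints and 62.2, 50.2, 69.2 and 61.65 CPM in LST day 35 joints. All RST libraries of both days were above all LST libraries (log2 fold change 0.92 ± 0.15, edgeR adjusted p = 1.09e-05 on day 7). On day 35 it had 78.96, 70.04, 105 and 94.9 CPM and missed the threshold (log2 fold change 0.52 ± 0.15, edgeR adjusted p = 0.0694). Cfi, the protease that inactivates C3b and C4b, was near the detection limit, with 19 and 110 counts summed over the 4 RST day 3 and the 4 RST day 7 libraries and 3 counts over the 4 LST libraries. It was called on days 3, 7 and 14, the day 3 call being lost without RST day 3 replicate 2 or 3 or LST replicate 1, 2 or 3 (edgeR adjusted p between 0.065 and 0.108).

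The membrane regulators, which protect host cells, had small negative log2 fold changes on day 7, and library totals in place of TMM reversed their direction. Cd55, decay-accelerating factor, had 49.6, 58.1, 55.45 and 63.4 CPM in RST day 3 joints, 63.5, 60.8, 56.3 and 46.4 CPM in RST day 7 joints and 72.7, 59.6, 62.5 and 66.6 CPM in LST day 35 joints. It was not called on any day against LST (log2 fold change -0.21 ± 0.11 on day 3, edgeR adjusted p = 0.111). Library totals turned its log2 fold change round, to 0.32 on day 3, 0.42 on day 7 and 0.23 on day 14. Cr1l, known as Crry, the rodent regulator that helps break down C3b and C4b, had 31.3, 32.3, 34.85 and 27.5 CPM in RST day 7 joints and 37.2, 33.1, 43.7 and 41.3 CPM in LST day 35 joints. Its values overlapped, and it was called lower on day 7 (log2 fold change -0.30 ± 0.08, edgeR adjusted p = 0.00162), while library totals gave 0.33 on day 7 and 0.38 on day 3. Cd59a, which blocks the last step of the membrane attack complex, had 19.2, 18.15, 18.3 and 17.3 CPM in RST day 7 joints and 28.4, 24.3, 20.15 and 21.5 CPM in LST day 35 joints. It was called lower on day 7 (log2 fold change -0.37 ± 0.14, edgeR adjusted p = 0.0229), with library totals at 0.26. The call was lost without RST day 7 replicate 4 (log2 fold change -0.35, edgeR adjusted p = 0.054), or LST replicate 1 (log2 fold change -0.27, edgeR adjusted p = 0.103). The copies Cd55b and Cd59b can share reads with Cd55 and Cd59a, and Cd55 overlaps the antisense gene Gm16083.

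Itgam and Itgb2 encode the alpha and beta chains of complement receptor 3, with which phagocytes bind C3 fragments. Itgam had 48.8, 33.75, 30.3 and 36.9 CPM in RST day 3 joints, 15.1, 13.9, 21.2 and 15.9 CPM in RST day 7 joints and 2.75, 2.91, 4.11 and 4.05 CPM in RST day 35 joints. Itgam had 1.65, 0.9575, 1.53 and 1.28 CPM in LST day 35 joints. No RST library of these days overlapped with LST (log2 fold change 4.78 ± 0.32, edgeR adjusted p = 1.01e-10 on day 3, and log2 fold change 1.35 ± 0.34, edgeR adjusted p = 0.0292 on day 35). Itgb2 had 82.02, 64.6, 59.1 and 64.8 CPM in RST day 3 joints and 10.9, 10.7, 11.8 and 17.3 CPM in RST day 35 joints. Itgb2 had 5.70, 2.78, 3.71 and 4.14 CPM in LST day 35 joints. Here too the groups were apart (log2 fold change 4.05 ± 0.34, edgeR adjusted p = 1.32e-09 on day 3, and log2 fold change 1.64 ± 0.34, edgeR adjusted p = 0.00704 on day 35). Itgam shares exon bases with Gm49368, so its level depends on how shared reads were counted. Cd93, a C-type lectin of endothelial and myeloid cells first described as a C1q receptor, had 91.2, 75.7, 73.01 and 87.5 CPM in RST day 3 joints and 47.9, 71.2, 49.9 and 61.98 CPM in RST day 21 joints. Cd93 had 38.5, 33.3, 42.55 and 43.3 CPM in LST day 35 joints (log2 fold change 1.05 ± 0.11, edgeR adjusted p = 3.16e-08 on day 3). On day 35 it had 41.0, 40.6, 38.8 and 40.85 CPM in RST joints, within the LST range, and did not pass (log2 fold change 0.03 ± 0.11, edgeR adjusted p = 0.977). Vsig4, the receptor of resident macrophages for C3b and iC3b, had 0.882, 1.49, 0.940 and 1.21 CPM in RST day 3 joints, 0.145, 0.451, 0.310 and 0.765 CPM in RST day 14 joints and 0.332, 1.995, 1.004 and 2.515 CPM in RST day 35 joints. Vsig4 had 0.659, 0.228, 0.4685 and 1.07 CPM in LST day 35 joints. It passed in the test of any change across RST days (edgeR adjusted p = 0.0408) and in no comparison with LST.

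Between RST days, 25 of the 28 tested members passed in the test of any change across days 3 to 35, the exceptions being C3, C8g and Serping1, where 79.6% of all tested genes passed. The mean was highest on day 3 for 14 of the 28, on day 7 for 7, on day 14 for 2, on day 21 for 1 and on day 35 for 4. Peak days were not counted over all genes, so an early peak cannot be called particular to the members. On day 7, relative to day 3, 5 members rose (C1ra, C1s1, C2, Masp1 and Cfi) and 7 fell (Fcna, Cfp, C7, C3ar1, C5ar1, Clu and Itgam), against 18.7% and 22.5% of all genes. The call of C5ar1 in that step (log2 fold change -0.88 ± 0.29, edgeR adjusted p = 0.0205) was lost without RST day 3 replicate 1 (log2 fold change -0.76, edgeR adjusted p = 0.0671). That of C2 was lost without RST day 3 replicate 1 (log2 fold change 0.58, edgeR adjusted p = 0.0679), RST day 3 replicate 2 (log2 fold change 0.60, edgeR adjusted p = 0.0661), or RST day 7 replicate 3 (log2 fold change 0.53, edgeR adjusted p = 0.0917). On day 14, relative to day 7, 1 member rose (Cr1l, log2 fold change 0.32 ± 0.08, edgeR adjusted p = 0.00307, but -0.01 with library totals) and 6 fell (C1qb, Cfp, C3ar1, C5ar1, C5ar2 and Itgam), against 20.9% and 18% of all genes. That count of 6 was 0 without RST day 7 replicate 3 or RST day 14 replicate 3. It was 4 and 3 without RST day 7 replicates 2 and 4, 2 without RST day 14 replicate 1 or 4, 8 without RST day 7 replicate 1, and 11 without RST day 14 replicate 2.

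No member passed on day 21 relative to day 14, where 0.737% of all genes passed in either direction. Of the 28 tested members, 10 had an unadjusted edgeR p below 0.05, against 4151 of all 16149 tested genes. DESeq2 called 0 members and 1163 genes in all. Without RST day 21 replicate 2, 14 members were called lower in that step. Counts over all genes are not given for this or other fits that leave out a library, so member counts from them have no background. On day 35, relative to day 21, 0 members rose and 3 fell, Masp1, C3ar1 and Cd93, against 0.0805% and 3.89% of all genes. The log2 fold change was -0.89 ± 0.21 for Masp1 (edgeR adjusted p = 0.0263), -1.27 ± 0.35 for C3ar1 (edgeR adjusted p = 0.044) and -0.52 ± 0.11 for Cd93 (edgeR adjusted p = 0.0176). The count of 3 was 0 without RST day 21 replicate 2 or 4 or RST day 35 replicate 1, 2 or 3, and it was 9, 13 and 7 without RST day 21 replicates 1 and 3 and RST day 35 replicate 4. The 5 calls on day 35 against LST (C1qa, C1qb, C3ar1, Itgam and Itgb2) also shifted with single libraries. The count was 7, 6, 4 and 1 without RST day 35 replicates 1, 2, 3 and 4, and 4, 1, 4 and 3 without LST replicates 1, 2, 3 and 4, and with library totals in place of TMM 2 passed. Itgb2 passed in each of these 8 fits, with log2 fold changes between 1.45 and 1.84. Without RST day 35 replicate 4 the log2 fold changes were 0.90 for C1qa, 0.96 for C1qb, 1.64 for C3ar1 and 1.26 for Itgam, and without LST replicate 2 they were 0.998, 1.07, 1.76 and 1.21.

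Markers of several cell types in the tissue also differed between RST and LST joints. All 15 listed monocyte and recruited macrophage markers were higher on day 3, summing to 1488 to 2332 CPM in RST day 3 joints against 64.1 to 95.2 CPM in LST day 35 joints, while on day 35, 5 of 15 were higher, at 208 to 359 CPM. Of 14 fibroblast markers, 12 were higher and 0 lower on day 7, with sums of 26830 to 35280 CPM in RST joints against 1232 to 1384 CPM in LST day 35 joints, and 8 were higher on day 35. All 14 skeletal muscle markers were lower on day 3 and on day 7, and 0 on day 35, while 10 of 11 adipocyte markers were lower on day 3. None of these lists had a marker at 0 in every library. Other lists took other courses. Tissue-resident macrophage markers summed to 1222 to 1388 CPM in RST day 3, 831 to 1142 CPM in RST day 35 and 834.5 to 897.6 CPM in LST joints. Endothelial sums were 310 to 377.5 CPM in RST day 3 and 417 to 536 CPM in LST joints. Neutrophil sums averaged 118 CPM on RST day 3, 183 CPM on RST day 7 and 34.4 CPM in LST joints. The part of cell numbers in the complement changes was not tested.

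In lymph nodes, 30 of the 32 members passed the count filter, among 18312 genes, and the calls fell on C1q, C1ra, Itgam and 2 terminal components, all lower on the Implant side. Relative to NoImplant on day 14, 7 members were lower (C1qa, C1qb, C1qc, C1ra, Hc, C6 and Itgam) and 0 higher, against 2.53% and 3.44% of all genes. Relative to ContraImplant on day 7, 6 were lower (the same without C1ra) and 0 higher, against 0.541% and 0.175% of all genes. That test left out the pairing within mice, and with the mouse as a block Itgam and C6 alone passed. Implant and ContraImplant nodes of a number came from 1 mouse, and in all 6 mice the Implant node was lower for C1qa, C1qb, C1qc, C1ra, Fcna, Cfp, Hc, C6, C3ar1, Cd59a and Itgam, and higher for Serping1 and Clu. Over all tested genes, 10.9% were lower and 14.1% higher in all 6 mice.

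Windows 250 bases before to 50 after the annotated start (RefSeq, GRCm38.p6) were found for 22 member genes, some with more than 1 start, 25 windows in all. The 3 shown are those that hold the letters GAGGAA among the genes called lower in both node comparisons. C1qa, also called lower in both, had no window and could not be searched. Capitals mark these letters or, on the other strand, TTCCTC, the core that PU.1, a factor of myeloid cells, is known to bind.
C1qb, chr4:136886151-136886450, minus strand: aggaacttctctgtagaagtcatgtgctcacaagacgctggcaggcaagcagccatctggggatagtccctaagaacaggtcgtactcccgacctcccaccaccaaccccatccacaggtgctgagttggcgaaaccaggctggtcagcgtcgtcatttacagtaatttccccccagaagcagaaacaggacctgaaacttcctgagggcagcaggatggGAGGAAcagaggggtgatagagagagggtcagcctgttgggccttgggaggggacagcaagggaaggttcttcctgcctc
C1qc, chr4:136892865-136893164, minus strand: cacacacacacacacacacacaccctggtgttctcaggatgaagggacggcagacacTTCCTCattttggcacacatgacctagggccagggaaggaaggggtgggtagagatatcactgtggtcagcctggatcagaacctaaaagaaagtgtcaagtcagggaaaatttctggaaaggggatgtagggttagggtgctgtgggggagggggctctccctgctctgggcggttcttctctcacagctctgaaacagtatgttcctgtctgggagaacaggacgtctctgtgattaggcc
Itgam, chr7:128062390-128062689, plus strand: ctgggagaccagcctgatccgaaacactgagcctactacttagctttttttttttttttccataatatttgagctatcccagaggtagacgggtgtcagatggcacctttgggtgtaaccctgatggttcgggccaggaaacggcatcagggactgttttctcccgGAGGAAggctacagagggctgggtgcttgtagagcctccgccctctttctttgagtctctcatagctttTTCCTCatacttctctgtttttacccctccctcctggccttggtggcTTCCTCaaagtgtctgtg

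GAGGAA, searched on both strands, was in 9 of the 25 member windows and in 28.3% of all 32851 windows of this length. The AP-1 letters TGANTCA were in 2 of the 25 and 7.81% of all windows, and the C/EBP letters TTGCNNAA in 6 of the 25 and 10.8% of all windows. C1qb and C1qc had 1 match of the capitals each and Itgam 3, and the windows of C6 and Hc had none of the 3 motifs. C1ra, called on day 14 only, had 1 match of GAGGAA and 1 of the C/EBP letters. These matches describe letters in a window and do not show binding.

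**Figure D4:**
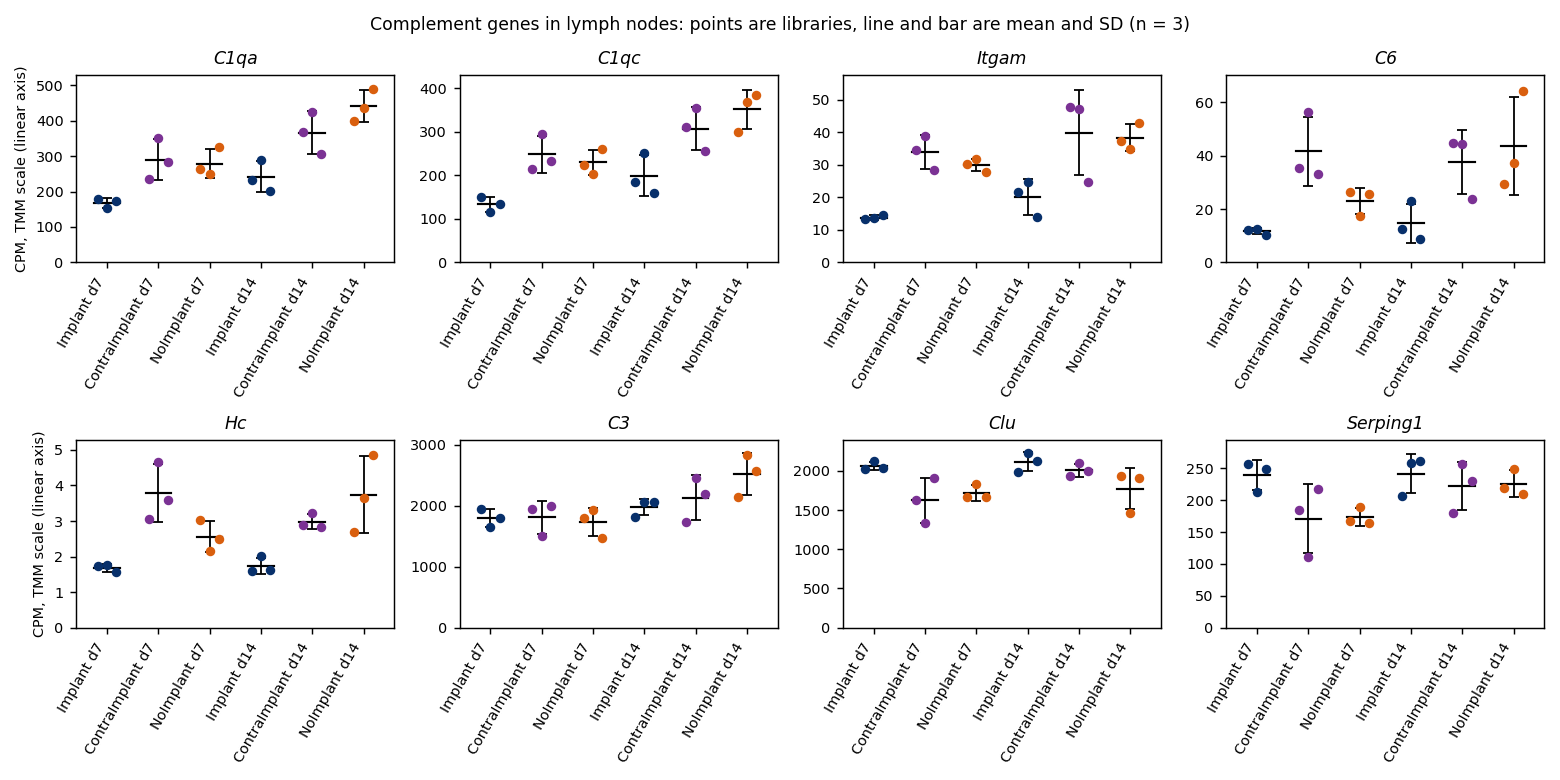
CPM (linear axes starting at 0) of 8 members in each lymph node library, Implant, ContraImplant and NoImplant on day 7 and then on day 14; points are libraries, lines and bars the mean and SD (n = 3). C1qa, C1qc, Itgam, C6 and Hc were lower in Implant than in NoImplant nodes on day 14 and than in ContraImplant nodes on day 7, and C3, Clu and Serping1 were not called. These calls come from the fit without the mouse as a block.

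C1qa had 233, 289 and 202 CPM in Implant day 14 nodes and 399, 437 and 489 CPM in NoImplant day 14 nodes, without overlap (log2 fold change -0.87 ± 0.17, edgeR adjusted p = 0.0242). On day 7 it had 178, 153 and 173 CPM in Implant nodes, 235, 351 and 283 CPM in ContraImplant nodes and 263, 248 and 326 CPM in NoImplant nodes. Implant lay below both other groups, and passed against ContraImplant (log2 fold change -0.79 ± 0.17, edgeR adjusted p = 0.0426) but not against NoImplant (log2 fold change -0.73 ± 0.17, edgeR adjusted p = 0.0668). C1qb had 166, 223 and 148 CPM in Implant day 14 nodes against 287, 336 and 347 CPM in NoImplant day 14 nodes (log2 fold change -0.85 ± 0.17, edgeR adjusted p = 0.0242). On day 7 C1qb had 127, 106 and 115 CPM in Implant nodes against 204, 256 and 199 CPM in ContraImplant day 7 nodes (log2 fold change -0.92 ± 0.17, edgeR adjusted p = 0.0319). C1qc had 186, 252 and 160.5 CPM in Implant day 14 nodes against 300.1, 369.9 and 386 CPM in NoImplant day 14 nodes (log2 fold change -0.82 ± 0.18, edgeR adjusted p = 0.0256). On day 7 C1qc had 151, 116 and 134 CPM in Implant nodes against 216, 295 and 233 CPM in ContraImplant day 7 nodes (log2 fold change -0.89 ± 0.18, edgeR adjusted p = 0.0384). Libraries of the 3 chains did not overlap in either comparison, but the share of all genes without overlap was not counted. C1ra had 50.5, 58.99 and 51.25 CPM in Implant day 14 nodes and 64.9, 84.4 and 71.3 CPM in NoImplant day 14 nodes (log2 fold change -0.46 ± 0.11, edgeR adjusted p = 0.0299). On day 7 Implant and ContraImplant overlapped (log2 fold change -0.15 ± 0.11, edgeR adjusted p = 0.427).

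Itgam had 21.5, 24.8 and 13.9 CPM in Implant day 14 nodes and 37.2, 34.7 and 42.8 CPM in NoImplant day 14 nodes (log2 fold change -0.93 ± 0.23, edgeR adjusted p = 0.031). On day 7 it had 13.2, 13.5 and 14.5 CPM in Implant nodes against 34.5, 38.8 and 28.3 CPM in ContraImplant nodes (log2 fold change -1.30 ± 0.23, edgeR adjusted p = 0.0319), again without overlap. Its partner chain Itgb2, shared with other leukocyte integrins, did not pass, with 364, 342 and 320.4 CPM in Implant day 7 nodes and 383, 338 and 334 CPM in ContraImplant day 7 nodes (log2 fold change -0.04 ± 0.07, edgeR adjusted p = 0.763). Hc, which encodes C5, had 1.61, 2.01 and 1.63 CPM in Implant day 14 nodes and 2.705, 3.635 and 4.87 CPM in NoImplant day 14 nodes (log2 fold change -1.10 ± 0.22, edgeR adjusted p = 0.0242). On day 7 Hc had 1.74, 1.75 and 1.555 CPM in Implant nodes against 3.07, 4.675 and 3.60 CPM in ContraImplant day 7 nodes (log2 fold change -1.16 ± 0.22, edgeR adjusted p = 0.0323). C6, the component that follows C5b in the complex, had 12.5, 22.9 and 8.72 CPM in Implant day 14 nodes and 29.2, 37.1 and 64.3 CPM in NoImplant day 14 nodes (log2 fold change -1.57 ± 0.36, edgeR adjusted p = 0.0299). On day 7 C6 had 12.1, 12.4 and 10.4 CPM in Implant nodes and 35.6, 56.5 and 33.0 CPM in ContraImplant nodes (log2 fold change -1.84 ± 0.37, edgeR adjusted p = 0.0384). Hc and C6 groups did not overlap in either comparison, again with no share over all genes counted. Hc also overlaps the antisense gene Gm13449.

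With the mouse as a block, the comparison of Implant with ContraImplant on day 7 kept Itgam (log2 fold change -1.30, edgeR adjusted p = 0.0236) and C6 (log2 fold change -1.82, edgeR adjusted p = 0.032). The edgeR adjusted p was 0.0677 for C1qa, 0.0554 for C1qb, 0.0604 for C1qc and 0.0555 for Hc. With library totals in place of TMM, without the block, C1qa also missed the threshold (edgeR adjusted p = 0.0513). The count of 6 was 0 without ContraImplant replicate 2 or any 1 of the 3 Implant libraries, 8 without ContraImplant replicate 1 and 6 without ContraImplant replicate 3. The count of 7 on day 14 was 0 without NoImplant replicate 2 or 3 or Implant replicate 2 or 3, 3 without Implant replicate 1 and 10 without NoImplant replicate 1. Over those fits the log2 fold change of C1qa stayed between -1.06 and -0.76 on day 14, and that of C6 between -2.08 and -1.18.

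Markers of several cell types moved in the same comparisons. Of 12 tissue-resident macrophage markers, 0 were higher and 4 lower in Implant day 14 nodes, with sums of 1161 to 1694 CPM in Implant and 1847 to 2886 CPM in NoImplant day 14 nodes. On day 7, 5 were lower, with 836.5 to 1095 CPM in Implant and 1574 to 2977 CPM in ContraImplant nodes. Of 9 tested lymph node macrophage markers, 1 was lower on day 14 (731 to 1100 CPM in Implant and 1132 to 1849 CPM in NoImplant nodes) and 2 on day 7 (636 to 832 CPM in Implant and 1072 to 1648 CPM in ContraImplant nodes). No monocyte and recruited macrophage marker of 15 was called in either comparison. Their sums overlapped on day 14 (2172 to 2585 CPM in Implant and 1916 to 2836 CPM in NoImplant nodes). On day 7 their sums were apart, at 1605 to 1822 CPM in Implant and 1871 to 1974 CPM in ContraImplant nodes. On day 14, 4 of 12 endothelial markers were lower (1032 to 1092 CPM in Implant and 1347 to 1849 CPM in NoImplant nodes) and 6 of 11 B cell markers higher (6651 to 7876 CPM in Implant and 4140 to 5761 CPM in NoImplant nodes). Lymph node stroma sums were also apart on day 14, at 1377 to 1533 CPM in Implant and 1845 to 2425 CPM in NoImplant nodes, with 2 of 11 markers higher and 1 lower. Stroma sums were apart on day 7 too, at 886.5 to 1224 CPM in Implant and 1262 to 1443 CPM in ContraImplant nodes. Follicular dendritic cell sums lay the other way on day 14, at 2431 to 2850 CPM in Implant and 2008 to 2236 CPM in NoImplant nodes. These sums overlapped on day 7, at 2184 to 2305 CPM in Implant and 1671 to 2190 CPM in ContraImplant nodes. On day 7, 1 endothelial marker was lower (799.8 to 879 CPM in Implant and 1069 to 2028 CPM in ContraImplant nodes), 3 of 14 fibroblast markers were higher (1778 to 2091 CPM in Implant and 1386 to 1513 CPM in ContraImplant nodes), and 0 B cell markers were called. Adipocyte markers, of tissue that surrounds nodes, summed to 285 to 768 CPM in Implant day 14 nodes and 970.5 to 5123 CPM in NoImplant day 14 nodes, with no marker called. With that sum as a covariate, chosen after the data were seen, 0 of the 7 members passed on day 14 (C6, log2 fold change -1.28, edgeR adjusted p = 0.289, and C1qa, -0.69, edgeR adjusted p = 0.22). All 6 calls against ContraImplant on day 7 remained with it (C6, log2 fold change -1.76, edgeR adjusted p = 0.0217, and C1qa, -0.74, edgeR adjusted p = 0.0233). In ContraImplant day 7 nodes that sum ran between 241 and 9253 CPM, the highest in replicate 2. Counts over all genes are not given for this fit, so its lost and kept calls have no background. Whether tissue around the nodes played a part was not tested. The part of cell numbers in these differences was not tested.

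The other node comparisons called no member. Implant against NoImplant on day 7 had 0 calls, where 0.0437% of all genes passed. Of the 30 tested members, 10 had an unadjusted edgeR p below 0.05, against 3326 of all 18312 tested genes. DESeq2 called 4 members and 711 genes in all. The log2 fold change of Itgam was -1.12 ± 0.23 (edgeR adjusted p = 0.0632). Implant against ContraImplant on day 14 had 0 calls, where 0% of all genes passed by edgeR. It had 8 members at an unadjusted p below 0.05, against 1550 genes in all. DESeq2 called 1 member there, and 11 genes in all. ContraImplant against NoImplant gave 0 members by edgeR and by DESeq2 on both days (0% of all genes by edgeR). At an unadjusted p below 0.05 were 4 members on day 7 (Hc, C5ar1, C6 and Cfb) and 0 on day 14. Over all genes 1349 were below it on day 7 and 1062 on day 14. Implant day 14 against Implant day 7 gave 0 by both tools (0% of all genes by edgeR). It had 5 members at an unadjusted p below 0.05, against 1566 genes in all. The change between days in Implant minus that in NoImplant gave 0 by both tools (0% of all genes by edgeR). It had 1 member (C1ra) at an unadjusted p below 0.05, against 921 genes in all. No difference between the days was thus detected for C1q, Hc, C6 or Itgam.

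Clu and C3, the members with the highest levels per kb in nodes, passed in no node comparison. C3 had 1822, 2058 and 2057 CPM in Implant day 14 nodes and 2148, 2837 and 2575 CPM in NoImplant day 14 nodes, with no call (log2 fold change -0.35 ± 0.15, edgeR adjusted p = 0.14). Clu, known for its expression in follicular dendritic cells, had 2025, 2128 and 2037 CPM in Implant day 7 nodes and 1635, 1329 and 1909 CPM in ContraImplant day 7 nodes (log2 fold change 0.35 ± 0.12, edgeR adjusted p = 0.142). Those 2 groups of Clu values did not overlap, although the test did not pass. C4b had 282 to 292 CPM in Implant day 14 nodes and 289 to 414 CPM in NoImplant day 14 nodes, and Cfp 162 to 206 CPM and 159.8 to 239 CPM in those groups. In ContraImplant day 7 nodes, replicate 2, the library with the high adipocyte sum, was the highest for Cd59a (4.27, 23.3 and 6.66 CPM) and for Fcna (22.5, 60.6 and 27.3 CPM). The anaphylatoxin receptors did not pass either, with 1.22 to 2.78 CPM of C3ar1 and 3.74 to 4.555 CPM of C5ar1 in Implant day 14 nodes, against 2.32 to 4.67 CPM and 3.54 to 7.64 CPM in NoImplant day 14 nodes. Masp1 and Vsig4 had group means below 1 CPM in every node group, Masp2 and Fcnb were below the count filter, and the remaining members also passed in no node comparison.

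Complement genes outside the 32 were read from a second list of 25, of which 12 passed the count filter in joints and 16 in nodes. In joints 3 were higher and 4 lower on day 3, 4 and 5 on day 7, and 2 and 0 on day 35, relative to LST. Of all tested genes, 38.6% were higher and 30.1% lower on day 3, 41% and 35.1% on day 7, and 2.92% and 0.0495% on day 35. Itgax, the alpha chain of complement receptor 4, had the smallest adjusted p on each of these days. Its means were 6.39 CPM in RST day 3, 11.98 CPM in RST day 7 and 3.39 CPM in RST day 35 joints, against 0.498 CPM in LST joints. On the log2 scale that is 3.66 ± 0.40 on day 3 (edgeR adjusted p = 4.38e-08), 4.57 ± 0.39 on day 7 (edgeR adjusted p = 1.34e-09) and 2.75 ± 0.42 on day 35 (edgeR adjusted p = 0.000396). Colec12, a collectin of vascular cells, rose by 1.36 ± 0.27 on day 3 (log2, edgeR adjusted p = 0.000104), 2.58 ± 0.27 on day 7 (edgeR adjusted p = 1.9e-08) and 1.41 ± 0.27 on day 35 (edgeR adjusted p = 0.00344). Ptx3, a pentraxin that binds C1q, rose by 0.95 ± 0.16 on day 3 (log2, edgeR adjusted p = 2.23e-05) and 1.67 ± 0.16 on day 7 (edgeR adjusted p = 7.68e-09). Cd46 was lower on day 3 (log2 fold change -0.92 ± 0.19, edgeR adjusted p = 0.000142), and C1qbp on day 7 (log2 fold change -0.80 ± 0.11, edgeR adjusted p = 1.34e-06). Library totals in place of TMM moved the median log2 fold change of all genes to 0.61 on day 3 and 0.71 on day 7. Neither decrease was read under that scaling. In nodes 1 was higher in Implant than in NoImplant nodes on day 14 (Cd46, log2 fold change 0.71 ± 0.16, edgeR adjusted p = 0.0298) and 1 lower (Vtn, vitronectin, log2 fold change -0.65 ± 0.14, edgeR adjusted p = 0.0245), against 3.44% and 2.53% of all genes. In nodes 0 passed in Implant against ContraImplant on either day or in Implant against NoImplant on day 7.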

How the data were processed

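The members and lists were chosen with earlier results of these data known, and 1 other complement gene is not reported here. Libraries were made from total RNA of flash frozen tissue with the NEBNext Ultra II kit, per the labels' protocols, and fastp, STAR and the mm10 build are named in the submitters' processing notes, without versions. The counting program, annotation and strand setting were not given in the sources used here. The authors deposited raw gene counts, 1 table per tissue. Of the listed genes, 36591 joint and 54723 node IDs matched GENCODE M21, which gave symbols, positions and exon lengths.

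From these counts, edgeR 4.0.16 in R 4.3.3 fitted 1 quasi-likelihood model per tissue over its 6 groups, after filterByExpr (minimum count 10) and TMM scaling, with Benjamini-Hochberg adjustment over all genes of the tissue and a threshold of 0.05. CPM and their SD use the TMM scale. Library totals ran between 17842090 and 44371001 counts. Members passing in a comparison of a tissue, with a group mean of at least 1 CPM there, are described library by library, and others by range.

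No replicates agreed within sampling noise (lowest chi-square per degree of freedom 8.27). The fit was tested on simulated data with known changes. Same-numbered Implant and ContraImplant nodes came from 1 mouse, and their deviations correlated with r between 0.106 and 0.352 on day 7 and between 0.179 and 0.402 on day 14. Alternatives were DESeq2 1.42.0, other scalings, no count filter, a replicate block, the compared groups alone and leaving out each library. Leaving out RST day 14 replicate 2 with RST day 21 replicate 2, and an adipocyte marker covariate, were chosen after seeing the data.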

Additional observations from a re-analysis of the deposited data

Results flagged for a closer look

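Values far from the other libraries of their group were looked for in 140 groups of 4 joint libraries, over members with a mean of at least 1 CPM, with Dixon's test at its 95% critical value for the gap to the nearest library as a share of the range. Chance flags about 1 in 20 groups, and 14 groups were flagged.

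RST day 7 replicate 3 was the highest of its group for 4 classical pathway genes, with 147.2 CPM of C1qb, 119.3 CPM of C1qc, 3.93 CPM of C1rl and 92.3 CPM of C1s1. RST day 14 replicate 2 was the highest for Cfp, at 27.9 CPM, and Itgam, at 15.1 CPM, and RST day 21 replicate 2 for C1s1, at 58.1 CPM. RST day 35 replicate 4 was the highest for Itgb2, at 17.3 CPM, and RST day 35 replicate 3 for Cd59a, at 29.3 CPM. C4b was lowest in replicate 1 both on RST day 3, at 17.4 CPM, and on RST day 7, at 24.6 CPM. Fcna was lowest in RST day 3 replicate 1, at 2.32 CPM, and Clu in RST day 14 replicate 1, at 59.8 CPM. C5ar1 was highest in LST day 35 replicate 1, at 1.74 CPM.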

How the results depend on the processing

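Counts of members called are given as higher or lower in the first-named group. With library totals in place of TMM, counts were 0 lower on days 3 and 7 against LST, 2 higher on day 35, and 0 higher and 14 lower on day 14 against day 7. That scaling moved the median log2 fold change of all genes to 0.61, 0.71, 0.33 and 0.14 on days 3, 7, 14 and 21 against LST, and to -0.35, -0.20 and -0.10 in the steps to days 14, 21 and 35. It reversed Cd55 (0.32, 0.42 and 0.23 on days 3, 7 and 14), Cr1l (0.38 and 0.33 on days 3 and 7, and -0.012 for day 14 against day 7), and, on day 7, C8g (0.14), Cd59a (0.26) and Clu (0.44). Over all genes its split was 7762 higher and 1096 lower on day 14 (5387 and 3963 with TMM), 3924 and 349 on day 21 (3499 and 876), 3454 and 2337 for day 7 against day 3 (3013 and 3635), 1315 and 7727 for day 14 against day 7 (3377 and 2907), 6 and 459 for day 21 against day 14 (14 and 105), and 1082 and 428 for Implant against NoImplant on day 14 (630 and 464).

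On day 3 against LST, lower calls were 3 with DESeq2 size factors or no count filter, 4 with DESeq2, and 2 with the replicate block, with the compared groups alone or without RST day 14 replicate 2 and RST day 21 replicate 2. Without those 2 libraries, day 35 against LST had 9 higher, day 14 against day 7 had 2 higher and 13 lower, day 7 against day 3 had 11 lower, day 21 against day 14 had 5 lower and day 35 against day 21 had 0 lower. Day 35 against LST had 8 higher with no filter and with DESeq2. Day 35 against day 21 had 11 lower with no filter, 9 with DESeq2 and 0 with the compared groups alone, which gave 1 lower on day 14 against LST and 10 lower on day 14 against day 7. In nodes, Implant against NoImplant on day 7 had 4 lower with no filter and with DESeq2, and 2 higher and 5 lower with the compared groups alone, and Implant against ContraImplant on day 7 had 0 lower with those alone and 2 lower with the mouse as a replicate block. DESeq2 called 1 lower for Implant against ContraImplant on day 14. The adipocyte covariate gave 0 lower for Implant against NoImplant on day 14 and 1 higher for Implant against ContraImplant on day 7. Over all genes, DESeq2 called 767 on day 35 against LST (edgeR 479) and 1209 on day 35 against day 21 (edgeR 641). In nodes it called 711 for Implant against NoImplant on day 7 (edgeR 8) and 11 for Implant against ContraImplant on day 14 (edgeR 0). DESeq2 size factors gave 5198 genes lower on day 3 against LST (TMM 4867). Counts over all genes are not given for the other fits of this paragraph, so their member counts have no background. The cause was not tested.

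Leaving out 1 library at a time gave, against LST, 19 to 22 higher and 1 to 3 lower on day 3, 19 higher and 3 to 5 lower on day 7, 19 higher and 0 to 1 lower on day 14, 14 to 18 higher on day 21 and 1 to 7 higher on day 35. Steps gave 4 to 5 higher and 7 lower (day 7), 1 to 3 higher and 0 to 11 lower (day 14), 0 to 14 lower (day 21) and 0 to 13 lower (day 35), and any change across days gave 23 to 26. Implant against NoImplant on day 14 ranged over 0 to 10 lower, and Implant against ContraImplant on day 7 over 0 to 1 higher and 0 to 8 lower. Counts over all genes are not given for these fits either. In no joint comparison did every library correlate best with the library of its own replicate number. For RST against LST on day 35, same-numbered libraries had r between 0.0829 and 0.191, so whether numbers pair joint libraries is not settled. In joints the replicate block ended the calls of C8g on day 7 against LST (log2 fold change -0.47) and C3ar1 on day 35 against day 21 (-1.20). DESeq2 ended no call between 2 groups, and called 24 members in place of 25 for any change across days. Genes below 1 CPM rest on few counts, and 3 or 4 libraries a group limit the size of change that can be called.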
